A study of Mus musculus with 12 samples.

Results

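FoxP3 binding was examined in 5 windows of the mouse genome set around 8 cytokine genes: Il2 and Il21, Il4, Il13 and Il5, Ifng, Il17a, and Il10. The windows were given as mm9 coordinates and were not checked against an mm9 gene annotation. Every FoxP3 peak with its summit inside one of them was taken. Joined over the libraries wherever they overlapped by at least 1 bp, these peaks made 42 regions, out of 24765 regions in the whole series. FoxP3 is the forkhead transcription factor that defines regulatory T (Treg) cells, the CD4+ T cells that restrain other immune cells. It was immunoprecipitated from freshly isolated CD4+ hCD2+ Treg cells of lymph nodes and spleen of C57BL/6J mice carrying either FoxP3 with the substitution A384T (A384T, from FoxP3A384T:hCD2 mice) or wild-type FoxP3 (WT, from FoxP3WT:hCD2 mice). In both lines a human CD2 reporter was used for magnetic sorting, so the reporter is common to both groups. A384T lies in the forkhead domain and is known from the human autoimmune disorder IPEX. Each genotype had 3 ChIP libraries with a peak list each, and the question is which sites near these genes each form of the protein occupied. The labels give neither the age nor the sex of the mice, nor whether replicates are separate mice. The p-values therefore reflect library-to-library spread, part or all of which may be technical.

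The members differ in what they do. IL-2 (Il2) is a T cell growth factor that Treg cells consume but hardly make, and IL-21 (Il21), encoded next to it, helps B cells in germinal centres. IL-4, IL-13 and IL-5 are the type 2 effector cytokines, IFN-γ (Ifng) is the type 1 effector cytokine, and IL-17A (Il17a) is that of Th17 cells. IL-10 (Il10) differs from these in being a suppressive cytokine that effector Treg cells themselves release. FoxP3 is known to hold down several of the effector cytokine genes, with Il2 as the best studied example, where it acts together with NFAT.

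The cytokine genes have close neighbours. In the RefSeq gene order of GRCm38.p6, Il21 lies next to Il2, between Il2 and Cetn4, and Adad1 is on the other side of Il2. Il4, Il13, Rad50 and Il5 follow each other, with Kif3a before Il4 and Irf1 after Il5. Il17f adjoins Il17a, Il19 adjoins Il10, and Il22 is a near neighbour of Ifng. No mm9 gene annotation was used here, so peaks are given by position within a window and not assigned to a gene, an exon or an intron.

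Promoter sequence of the members was read from RefSeq (GRCm38.p6), where 7 of the 8 genes were found and Il10 was not. Il2 is shown as the best known FoxP3 target and Ifng because its window was the one with a peak in the most libraries. Each is 250 bases upstream of the transcription start, on the gene's own strand, with the forkhead core TGTTT in capitals wherever it lay on either strand. The core GGAAA, which NFAT recognises, is likewise in capitals on either strand. These positions are of GRCm38.p6 and cannot be set beside the mm9 peaks, so no peak is placed on them.
Il2 promoter, chr3:37125955-37126204, minus strand: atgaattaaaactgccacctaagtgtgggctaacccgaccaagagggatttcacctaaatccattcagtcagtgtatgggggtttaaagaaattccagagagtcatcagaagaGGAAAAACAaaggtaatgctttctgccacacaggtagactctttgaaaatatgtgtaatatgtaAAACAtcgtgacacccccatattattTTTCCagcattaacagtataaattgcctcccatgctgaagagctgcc
Ifng promoter, chr10:118440796-118441045, plus strand: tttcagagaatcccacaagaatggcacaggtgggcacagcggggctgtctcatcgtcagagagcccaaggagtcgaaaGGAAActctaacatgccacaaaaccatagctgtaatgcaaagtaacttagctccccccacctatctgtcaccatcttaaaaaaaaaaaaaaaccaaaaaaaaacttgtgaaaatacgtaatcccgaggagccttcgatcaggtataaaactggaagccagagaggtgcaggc
The Il2 stretch holds TGTTT 2 times and GGAAA 2 times, and 1 copy of the forkhead core shares 1 base with 1 copy of the NFAT core. How often such overlaps occur in other promoters was not counted. These counts were not particular to Il2, since the Il5 promoter also holds 2 of each. Both Il4 promoters hold TGTTT 2 times, with GGAAA 0 and 5 times. Il13, Il21 and Il17a hold TGTTT 0 times and GGAAA 4, 3 and 0 times. The Ifng stretch holds the NFAT core 1 time and the forkhead core 0 times. The full forkhead motif TGTTTAC, searched on both strands, was in none of the promoters of the 7 genes, and 3.17% of all 32851 promoters of this length hold it. The short cores are common, at 46.4% of promoters for the forkhead core and 55.6% for the NFAT core.

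Peaks were called by the authors in each library separately, and the lists differ widely in length within each genotype. They held 18147, 6657 and 2050 peaks on the standard chromosomes in A384T replicates 1, 2 and 3, and 20723, 1746 and 3905 in WT replicates 1, 2 and 3. Unique tags numbered between 17520951 and 25386770 per library. Both replicate 1 libraries were sequenced with tags of 51 bp and the other 4 with tags of 49 bp. A peak absent from a list did not pass the authors' q-value cutoff of 1e-10 in that library, which does not show that FoxP3 was absent from the site.

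Both proteins had peaks in all 5 windows, and in both the peaks came mainly from the replicate 1 library. The windows held 26, 12 and 0 peaks in A384T replicates 1, 2 and 3, against 39, 2 and 3 peaks in WT replicates 1, 2 and 3. The 2 genotypes thus overlapped, and A384T replicate 3 was the lowest library and WT replicate 1 the highest. As a share of the list this was 1.43, 1.80 and 0 window peaks per 1000 peaks in A384T replicates 1, 2 and 3, against 1.88, 1.15 and 0.768 in WT replicates 1, 2 and 3. The means were 1.08 ± 0.952 for A384T and 1.27 ± 0.566 for WT (SD, n = 3 each), a difference of -0.187 that was smaller than the replicate SD of either genotype. The two-sided exact permutation test gave p = 0.8, in a design that cannot go below 0.1. Without A384T replicate 3 the difference was 0.352, without WT replicate 1 it was 0.122, and without A384T replicate 2 it was -0.549, so its sign rested on single libraries. Within the 49 bp libraries the means were 0.901 ± 1.27 for A384T and 0.957 ± 0.267 for WT (SD, n = 2 each). The 51 bp libraries, 1 for each genotype, gave the values 1.43 for A384T and 1.88 for WT above.

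**Figure D1:**
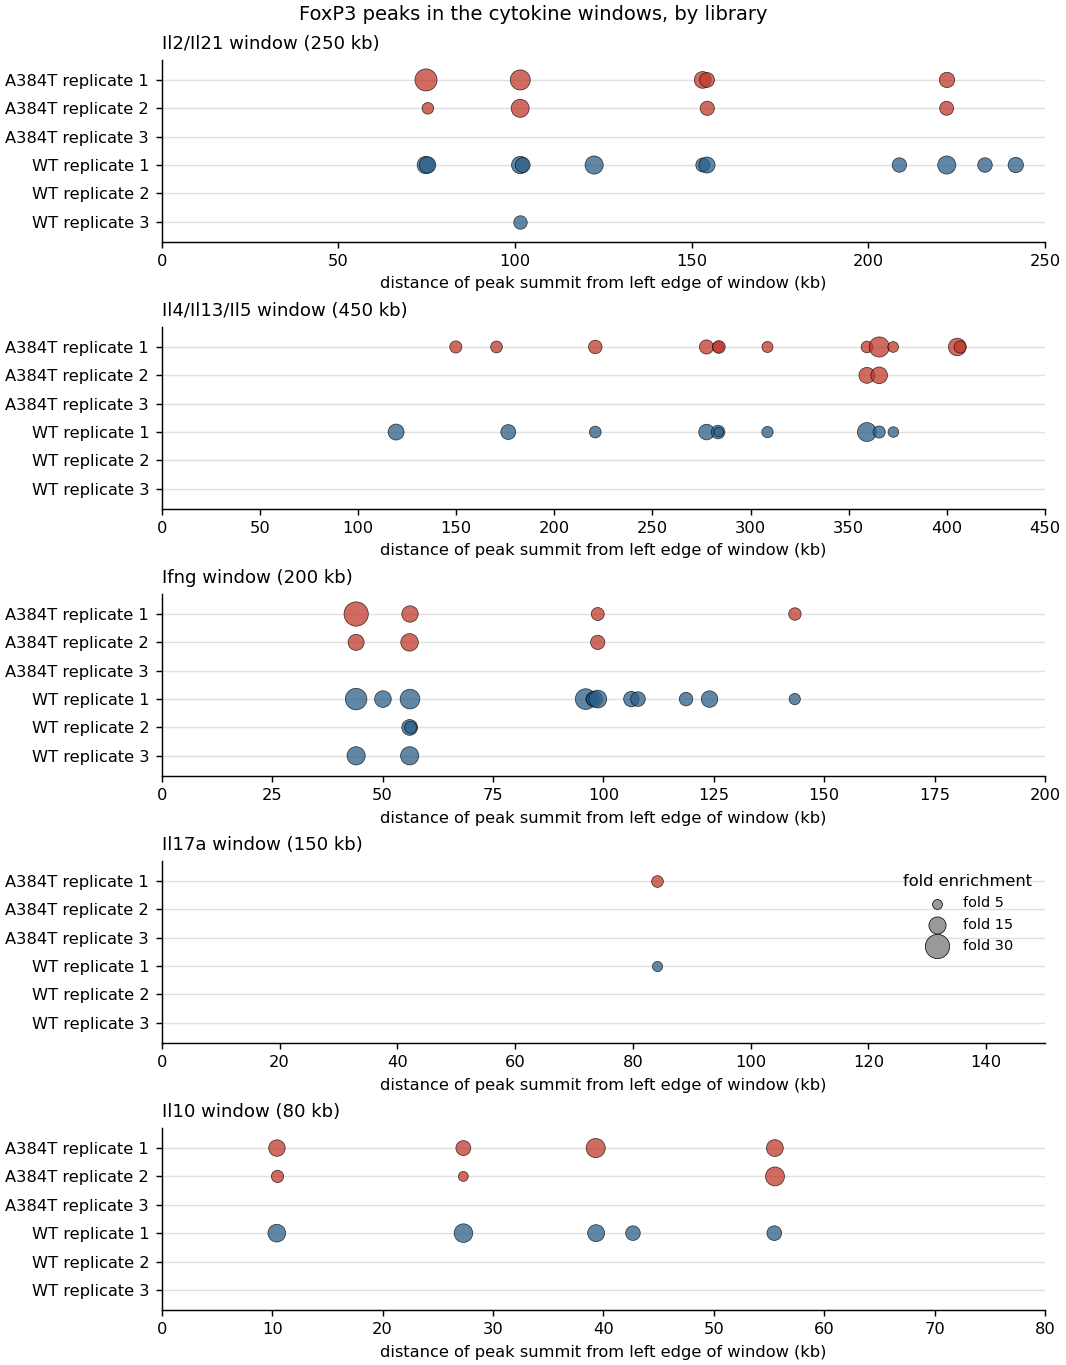
Each circle is a peak at the distance (kb) of its summit from the left edge of its window, in 1 row per library (red A384T, blue WT), with an area proportional to the authors' fold enrichment over control. Peaks of the shorter lists sit under peaks of the replicate 1 lists, A384T replicate 3 has 0 peaks, and WT replicate 2 has 2, both in the Ifng window.

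Over the 1.13 Mb of windows there were more peaks per Mb than in the rest of the genome in 5 of the 6 libraries. A384T replicates 1 and 2 had 23.0 and 10.6 peaks per Mb in the windows and 6.88 and 2.52 per Mb elsewhere, ratios of 3.35 and 4.21. WT replicates 1, 2 and 3 had 34.5, 1.77 and 2.65 per Mb in the windows and 7.85, 0.662 and 1.48 per Mb elsewhere, ratios of 4.40, 2.67 and 1.79. The values of WT replicates 2 and 3 rest on 2 and 3 peaks, where the density elsewhere would give 0.748 and 1.67, and both peaks of WT replicate 2 belong to 1 region. In the replicate 1 lists the Il17a window was an exception, at 0.969 and 0.849 times the density elsewhere in A384T and WT. Each ratio rests on 1 peak, where the density elsewhere would give 1.03 and 1.18. The Il17a window had no peak in the other libraries. The Il4, Il13 and Il5 window and the Il10 window also had no peak in WT replicates 2 and 3. The Il2 and Il21 window had none in WT replicate 2. A384T replicate 3 had 0.778 peaks per Mb elsewhere, at which the windows would hold 0.879 peaks. Its count of 0 allows up to 3 peaks by counting error alone, which is 2.65 per Mb or 3.41 times its density elsewhere. Densities elsewhere include gene-poor sequence, and no set of other gene loci was compared. The windows were chosen with earlier results of these data known, so the excess is a description and was not tested.

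**Figure D2:**
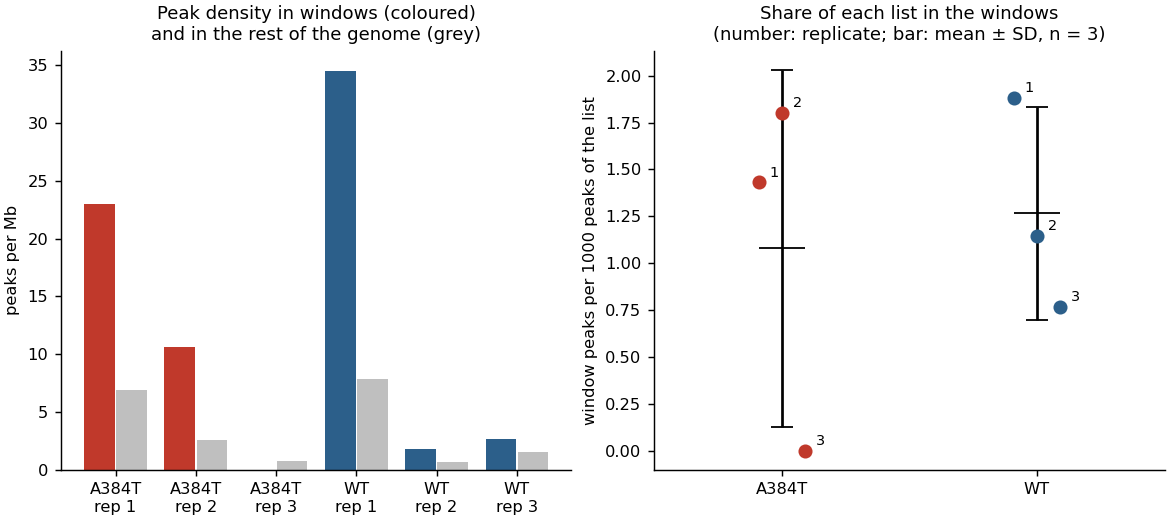
Left, peaks per Mb in the 5 windows (coloured bars) and in the rest of the genome (grey bars) for each library; right, window peaks per 1000 peaks of the list, with points for replicates, and the mean ± SD (n = 3) as bars. In the left plot the windows exceed the rest in every library except A384T replicate 3, and in the right plot the A384T points (0 to 1.80) and the WT points (0.768 to 1.88) overlap.

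The peaks in the windows were not among the strongest of the long lists. The best-placed window peak ranked 2362nd by -log10 q in A384T replicate 1 and 1157th in A384T replicate 2, against 2037th, 746th and 839th in WT replicates 1, 2 and 3. Median rank percentiles (100 being the strongest peak of a list) were 36.5 and 42.1 for the window peaks of A384T replicates 1 and 2, and 42.6, 31.8 and 76.5 for those of WT replicates 1, 2 and 3, the last from 3 peaks. When only the 1746 strongest peaks of each list were used, the windows kept 0, 1 and 0 peaks in A384T replicates 1, 2 and 3 and 0, 2 and 2 in WT replicates 1, 2 and 3. All but 1 of these 5 were peaks of Ifng region 3, described below, and the other was the WT replicate 3 peak of Ifng region 1. The difference of -1 peak was within the spread (two-sided exact permutation test, p = 0.4). The difference was 0.333 when the lists were reduced by fold enrichment in place of -log10 q. Peak widths had medians of 262 and 188 bp in the windows for A384T replicates 1 and 2, where the whole lists had 264 and 214 bp. For WT replicates 1, 2 and 3 the medians were 263, 191 and 214 bp in the windows and 261, 190 and 211 bp in the whole lists.

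About as many of the 42 regions were common to both genotypes as among all regions. A peak in at least 1 library of each genotype was found for 22 of them (52.4%), against 56.0% of all 24765 regions. Peaks of A384T alone made 4 regions (9.52%, against 17.2% of all regions) and peaks of WT alone made 16 (38.1%, against 26.8%). Each of these 20 regions (47.6%) came from 1 library, as did 42.4% of all regions: A384T replicate 1 for the 4 and WT replicate 1 for the 16. Of the 42 regions 0 were shared by 2 or 3 libraries of a genotype while lacking in the other genotype. Among all regions 0.763% met this for A384T and 0.872% for WT, shares at which 42 regions would hold 0.321 and 0.366. The counts of 22, 4 and 16 follow the replicate 1 lists. Without A384T replicate 1 they were 12 in both genotypes, 0 in A384T alone and 27 in WT alone, and without WT replicate 1 they were 3, 24 and 0. In lists of 1746 peaks they were 1, 0 and 1.

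Few of the regions recurred over most libraries. No region had a peak in all 6 libraries (3.88% of all regions did), 1 had a peak in 5, and 3 (7.14%) had one in at least 4, against 14.0% of all regions. All 3 A384T libraries had a peak in 0 regions (7.63% of all regions had this) and all 3 WT libraries in 1 (6.21% of all regions). In at least 2 A384T libraries there were 11 regions (26.2%, against 24.6% of all regions), and in at least 2 WT libraries 3 (7.14%, against 15.1%). The list of A384T replicate 2 is longer than those of WT replicates 2 and 3, and 8 regions had peaks in A384T replicates 1 and 2 and, of the WT libraries, in replicate 1 alone. Both replicate 1 libraries had a peak in 21 of the 42, against 54.8% of all regions. Only replicate 1 libraries, one or both, had a peak in 30 of the 42 (71.4%, against 71.1% of all regions). All 12 regions of A384T replicate 2 were found in WT replicate 1 and 11 of them in A384T replicate 1. Over the whole genome 96.0% and 94.4% of the regions of A384T replicate 2 were found in these lists. The region of WT replicate 2 and the 3 regions of WT replicate 3 were found in both replicate 1 lists. Over the whole genome WT replicate 1 had 100% of the regions of WT replicate 2 and 98.0% of those of WT replicate 3. A384T replicate 1 had 98.7% and 89.8% of them, so such overlap was usual for the shorter lists. Across the 22 regions found in at least 2 libraries, the summits of different libraries lay 10 to 107 bp apart, with a median of 45 bp, taking for each library its strongest peak by -log10 q in the region.

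The Ifng window held the region found in the most libraries. Ifng region 3, counted from the left edge of the window, lay on chromosome 10 from 117855772 to 117856573 and had a peak in every library except A384T replicate 3. Its fold enrichment over control, the authors' own value per peak, was 13.7 and 15.8 in A384T replicates 1 and 2, against 19.8, 12.8 and 17.0 in WT replicates 1, 2 and 3. The 2 A384T values lay inside the WT range. Over the libraries with a peak the means were 14.7 ± 1.44 (SD, n = 2) for A384T and 16.5 ± 3.51 (SD, n = 3) for WT. These means leave out A384T replicate 3 and join lists that share no scale. Its rank percentile was 77.5 and 82.6 in A384T replicates 1 and 2, against 90.2, 57.3 and 78.5 in WT replicates 1, 2 and 3. Presence in at least 5 libraries was found for 7.89% of all regions. Peak calls split this region in WT replicate 2, which had 2 peaks there and no other peak in any window. The values above are of the stronger peak, and the other had a fold of 7.57 at the 6.36 percentile.

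Ifng region 1, on chromosome 10 from 117843888 to 117844158, was found in 4 libraries. Fold enrichment was 30.1 and 13.2 in A384T replicates 1 and 2, against 23.7 and 17.0 in WT replicates 1 and 3, so the A384T values lay on either side of the WT values. The value of 30.1 was the highest fold of any window peak. Ifng region 7, from 117898458 to 117898876, had folds of 8.60 and 10.4 in A384T replicates 1 and 2 and of 16.1 in WT replicate 1. Region 12, from 117943242 to 117943501, was weak in both replicate 1 lists, at 7.90 in A384T and 6.46 in WT. Its rank percentiles had the other order, at 3.43 in A384T and 6.26 in WT. The other 8 Ifng regions had a peak in WT replicate 1 alone. They made 66.7% of the regions of the window, and regions of WT alone made 26.8% of all regions. Among tiles of 200 kb over the genome, 38.8, 21.4 and 10.3% held a peak in A384T replicates 1, 2 and 3, and 37.3, 7.35 and 13.1% in WT replicates 1, 2 and 3.

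In the Il2 and Il21 window the A384T libraries had peaks in 6 regions and the WT libraries in 11, and all 6 were among the 11. Regions of both genotypes thus made 54.5%, against 56.0% of all regions in the series. Regions of WT alone made 45.5%, against 26.8%, and all of these came from WT replicate 1, the longest list. Il2/Il21 region 3, on chromosome 3 from 37051239 to 37051605, was found in 4 libraries. Its fold was 20.6 and 16.6 in A384T replicates 1 and 2, against 15.5 and 9.28 in WT replicates 1 and 3. Both A384T folds were above both WT folds, but the rank percentiles overlapped, at 73.3 and 66.1 in A384T replicates 1 and 2 and at 81.6 and 33.4 in WT replicates 1 and 3.

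A pair of narrow regions lay close together at the left of the Il2 and Il21 window. Il2/Il21 region 1, from 37024652 to 37024888, had a fold of 24.9 in A384T replicate 1 and 15.4 in WT replicate 1. Il2/Il21 region 2, from 37025142 to 37025362, had a fold of 6.88 in A384T replicate 2 and 13.8 in WT replicate 1. It was the sole window region of A384T replicate 2 with no peak in A384T replicate 1. Regions 7 and 9 had peaks in A384T replicates 1 and 2 and WT replicate 1. Region 7, from 37104198 to 37104586, had folds of 11.2 and 10.4 in these A384T libraries and 13.2 in WT, and region 9, from 37172055 to 37172357, had 12.1 and 9.95 in A384T and 16.7 in WT. Region 6, from 37102961 to 37103272, had 14.3 in A384T replicate 1 and 10.01 in WT replicate 1. Its rank percentiles had the other order, at 56.9 in A384T replicate 1 and 63.9 in WT replicate 1. The remaining 5 regions of the window were peaks of WT replicate 1 alone.

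In the type 2 cytokine window, set around Il4, Il13 and Il5, neither WT replicate 2 nor WT replicate 3 had a peak, and the same was true of A384T replicate 3. Tiles of the genome of the same length held a peak in 19.8% of cases for A384T replicate 3, and in 14.4% and 23.5% for WT replicates 2 and 3. Of its 13 regions 7 were found in both genotypes, 4 in A384T replicate 1 alone and 2 in WT replicate 1 alone. These shares were 53.8, 30.8 and 15.4%, against 56.0, 17.2 and 26.8% of all regions in both genotypes, A384T alone and WT alone. The regions of A384T replicate 2 were a neighbouring pair on chromosome 11, also found in both replicate 1 lists. Il4/Il13/Il5 region 9, from 53659145 to 53659379, had folds of 6.99 and 12.9 in A384T replicates 1 and 2 and of 18.3 in WT replicate 1. Il4/Il13/Il5 region 10, from 53665396 to 53665637, had folds of 20.7 and 14.2 in A384T replicates 1 and 2 and of 7.55 in WT replicate 1. In A384T region 10 thus had the higher fold in both libraries, whereas in the WT library region 9 had it, with summits 6.23 kb apart in A384T replicate 1, 6.26 kb in A384T replicate 2 and 6.24 kb in WT replicate 1. With 1 WT library having the peaks, this order has no replicate in WT and no test.

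The other 5 regions of this window found in both genotypes were found in the replicate 1 libraries only. Region 6, from 53577411 to 53577679, was the strongest of them, with a fold of 10.2 in A384T and 12.5 in WT. Region 5, from 53520626 to 53520987, had 9.34 in A384T and 7.03 in WT, with rank percentiles in the other order (33.2 in A384T and 44.5 in WT). Region 7, from 53583268 to 53583990, had 6.41 in A384T and 9.50 in WT by its strongest peak in -log10 q. Each list had another peak there, lower in -log10 q, with a fold of 8.28 in A384T and 4.66 in WT. Regions 8 (53608465 to 53608847) and 11 (53672549 to 53672864) were weak, with 6.23 and 5.91 in A384T and 6.53 and 5.72 in WT. Region 12, from 53705164 to 53705387, was the strongest of the regions found in A384T replicate 1 alone, with a fold of 15.8 at the 76.1 percentile of its list.

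The Il10 window, the narrowest at 80 kb, was the densest of the 5 windows in both replicate 1 lists and in A384T replicate 2. In WT replicate 1 it had 62.5 peaks per Mb, close to the 60 of the Ifng window. The density was not particular to the window. The 80 kb to its right held 5, 2 and 0 peaks in A384T replicates 1, 2 and 3, and 4, 0 and 2 in WT replicates 1, 2 and 3. The 80 kb to its left held 0 in every library. It held 4, 3 and 0 peaks in A384T replicates 1, 2 and 3, against 5, 0 and 0 in WT replicates 1, 2 and 3, which is 7.27 and 14.9 times the density elsewhere in A384T replicates 1 and 2 and 7.96 times in WT replicate 1. All 4 regions of A384T were also found in WT, all in WT replicate 1. Regions of both genotypes made 80% of the 5 in this window, against 56.0% of all regions in the series. Il10 region 1, on chromosome 1 from 132890012 to 132890663, had folds of 13.9 and 7.74 in A384T replicates 1 and 2 and of 16.1 in WT replicate 1. Il10 region 2, from 132907106 to 132907466, had 11.4 and 5.01 in A384T and 17.8 in WT, and Il10 region 5, from 132935349 to 132935676, had 14.5 and 18.3 in A384T and 11.0 in WT. By fold, region 5 was higher in both A384T libraries than in the WT library, and regions 1 and 2 were lower in both, again with 1 WT library. Since lists share no scale, rank percentiles are given too, with the same order. For A384T replicates 1 and 2 and WT replicate 1 they were 68.5, 29.7 and 75.2 (region 1), 43.7, 0.856 and 71.6 (region 2), and 42.5, 71.8 and 29.5 (region 5). Region 2 in A384T replicate 2 had a -log10 q of 12.1, near the cutoff of 10. Il10 region 3, from 132919189 to 132919542, had 18.8 in A384T replicate 1 and 14.6 in WT replicate 1. Tiles of 80 kb with a peak made up 24.2, 11.1 and 4.66% of the genome in A384T replicates 1, 2 and 3, and 23.0, 3.41 and 6.38% in WT replicates 1, 2 and 3.

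The Il17a window held the fewest peaks of the 5. Its window of 150 kb held 1 region, on chromosome 1 from 20733994 to 20734349, found in both replicate 1 libraries and in no other. The fold was 7.06 in A384T and 5.35 in WT, and the peak lay at the 6.69 percentile of the A384T list and at the 0.410 percentile of the WT list. Its -log10 q was 17.5 in A384T and 11.5 in WT, against a cutoff of 10. Tiles of 150 kb with a peak made up 33.8% of the genome in A384T replicate 1 and 32.1% in WT replicate 1.

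**Figure D3:**
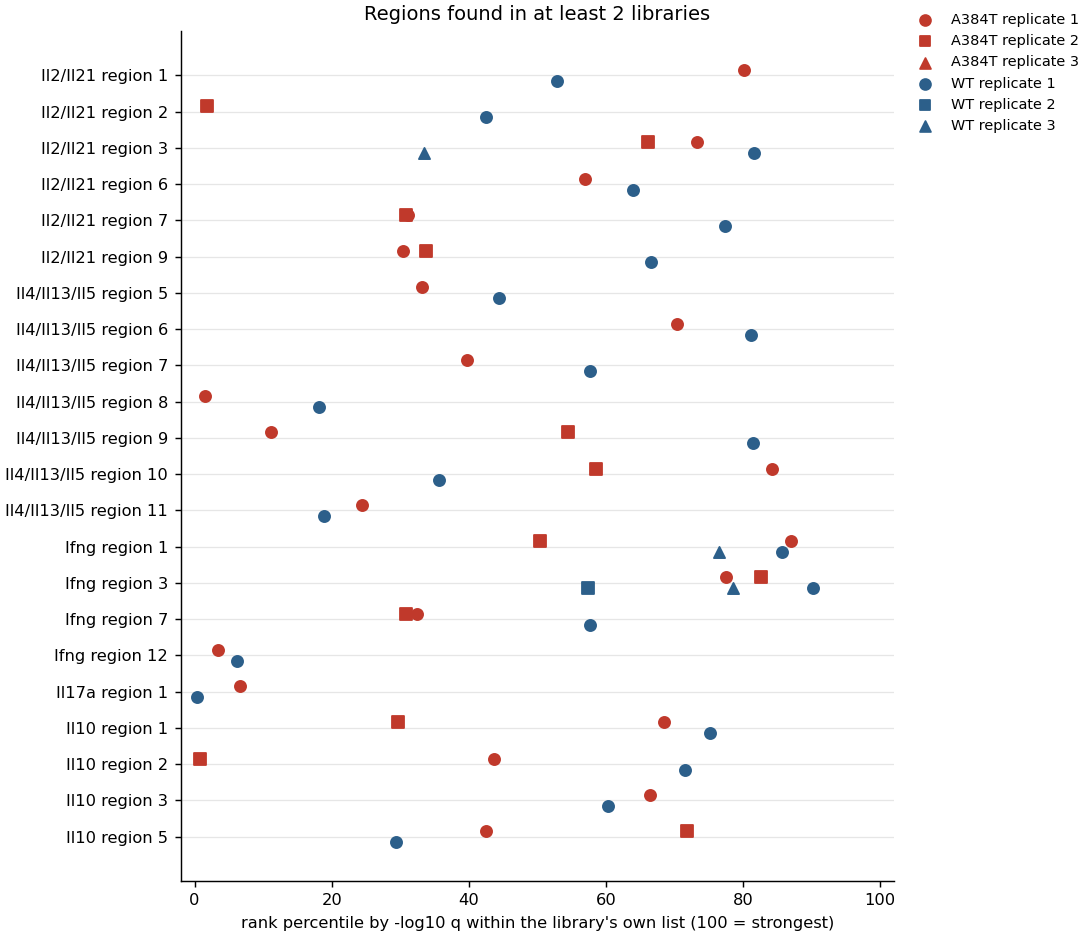
Rank percentile by -log10 q of each of the 22 regions found in at least 2 libraries (rows, in the order of the windows), with A384T in red and WT in blue, and circles, squares and triangles for replicates 1, 2 and 3; A384T replicate 3 has no point. Ifng regions 1 and 3 are at 50.4 or above in every library that has them, the Il17a region is at the far left, and 10 of the 22 regions have the 2 circles alone, while 12 also have a point of replicate 2 or 3.

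The replicate 1 lists, the longest of each genotype, allow the order of regions to be set side by side for 21 regions, with 1 library per genotype and no test. The rank percentile was higher in A384T for 7 of the 21 (33.3%) and higher in WT for 14. Among all 13567 regions of both lists it was higher in A384T for 43.6%. The median difference (A384T minus WT) was -8.36 percentile points in the windows, against -2.83 over all such regions. The lower and upper quartiles were -17.9 and 5.62 in the windows, against -20.4 and 12.3 over all such regions. The lowest and the highest difference belonged to the neighbours in the type 2 cytokine window: region 9 differed by -70.3 points and region 10 by 48.6 points. Among all 13567 regions of both lists, 0.634% had a difference at least as low as that of region 9. A difference at least as high as that of region 10 was found for 3.13%. Both regions were replicate 1 comparisons of 1 library per genotype. Regions 9 and 10 are named as the extremes of 21 regions. Within A384T the percentile of region 9 was 11.1 in replicate 1 and 54.5 in replicate 2, and that of region 10 was 84.2 and 58.6. In the Il2 and Il21 window regions 7 and 9 were lower in A384T, with differences of -46.2 and -36.2 points, and region 1 was higher by 27.2 points. Differences at least as low as these were found for 6.34% and 11.7% of all such regions. For region 1, 12.0% were at least as high.

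**Figure D4:**
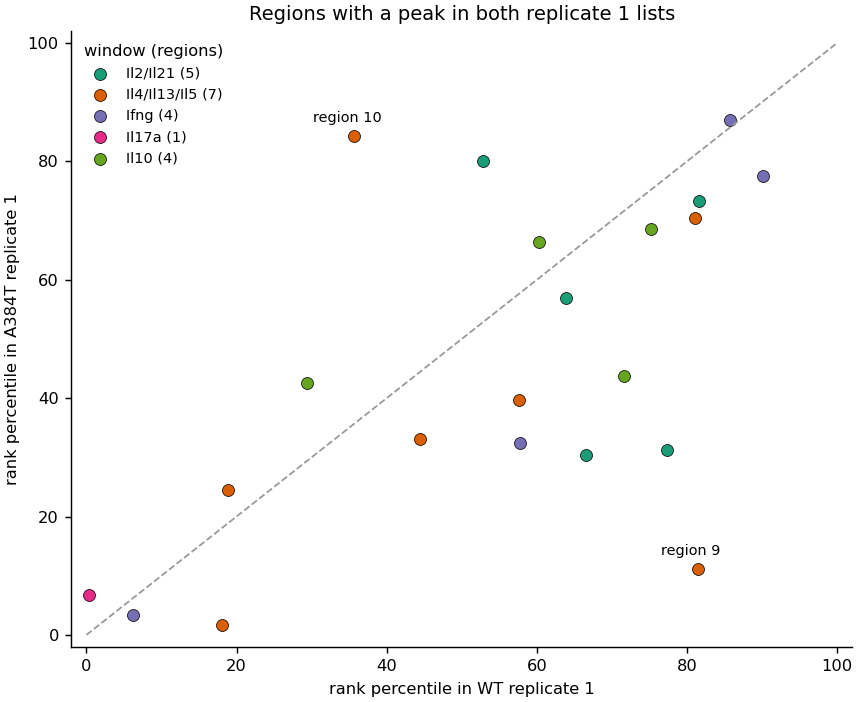
Rank percentile in A384T replicate 1 (vertical) against WT replicate 1 (horizontal) for the 21 regions with a peak in both lists, coloured by window, with equality as the dashed line. Of the points, 14 lie below the line and 7 above it, and regions 9 and 10 of the Il4/Il13/Il5 window lie farthest from it on opposite sides.

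The counts depend on the window edges as well. With each window widened by 50 kb on both sides, 31 regions were found in both genotypes, 7 in A384T alone and 26 in WT alone. The nearest region outside was 1.70 kb past the right edge of the Il2 and Il21 window, a peak of WT replicate 1 alone with a fold of 10.6. Right of the Ifng window, a region found in 4 libraries began 70.5 kb past the edge, on chromosome 10 from 118070465 to 118071048, with folds up to 49.5. Right of the type 2 cytokine window, a region of 4 libraries began 215 kb past the edge, on chromosome 11 from 53964587 to 53964954, with folds up to 26.7.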

How the data were processed

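FoxP3 was immunoprecipitated with 4 µg of a rabbit polyclonal antibody after 30 min of fixation in 1% formaldehyde, per the labels; groups and replicate numbers came from sample titles. Bowtie2, MACS2 and mm9 are named in the submitters' processing notes. Per the file headers, MACS 2.1.0.20140616 called peaks in each library against 1 control library, at a q-value cutoff of 1e-10 and with duplicate tags removed, and scaled the larger of the pair down. In the deposited lists each peak has the pileup (a signal value), -log10 p-value, fold enrichment (a ratio to local control) and -log10 q-value at each summit; these are the authors' values and describe peaks within a list, since lists share no scale.

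Peaks on unplaced sequences were dropped, and the others were joined over the whole table at an overlap of at least 1 bp. A region belongs to a window where a summit lies in it. Libraries were compared by exact permutation (20 assignments, two-sided). Tiles of a window's width were laid from the start of each chromosome to its last peak, 2636 Mb in all. All regions are accounted for, and those of at least 2 libraries are described; windows, members and lists were chosen with earlier results of these data known. Other cytokine genes were not analysed here, and the 6 inputs enter only through the peak calls. Joining and tests were tested on simulated data. Alternatives were a -log10 q of at least 20, a fold of at least 5, other joining (50% overlap, summits within 200 bp), other window rules, shorter lists, a replicate block, and each library left out. Python 3.11.15, numpy 2.4.6, pandas 2.3.3 and matplotlib 3.10.9 were used.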

Additional observations from a re-analysis of the deposited data

How the results depend on the processing

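Of 61 alternatives to 5 results, 47 kept the sign of the difference or stayed within 1.5 times the count, 11 moved a count further and 3 turned a sign. The difference in window peaks per 1000 ranged from -0.549 to 0.352 with single libraries left out. It turned positive without A384T replicate 3 (0.352) and without WT replicate 1 (0.122). The difference in lists of 1746 peaks ranged from -1.67 to -0.667 with single libraries left out, and turned to 0.333 when the lists were reduced by fold. With single libraries left out, regions in both genotypes numbered 3 to 22, regions in A384T alone 0 to 24 and regions in WT alone 0 to 27. Wider windows gave 7 regions in A384T alone and 26 in WT alone; lists of equal length gave 1, 0 and 1 for both, A384T alone and WT alone. Fewer libraries or shorter lists leave fewer peaks by construction. No p can fall below 0.1 in this design. With a replicate block (genotype permuted within replicate numbers) the differences were again -0.187 (exact p = 0.75) and -1 (exact p = 0.5), where the smallest possible p is 0.25. Presence of peaks, as deviation from the genotype mean, had correlations between same-numbered libraries of -0.188, -0.235 and -0.150 for replicates 1, 2 and 3. Between libraries of different number they ran from -0.0285 (A384T replicate 3 with WT replicate 2) to 0.222 (A384T replicate 1 with WT replicate 2). Only regions with a peak in some library entered, which can push such correlations down, so they cannot show whether the numbers are pairs. The main tests did not take the numbers as pairs. The replicate 1 libraries share 51 bp tags and the longest lists.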

Other observations

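The values here were singled out after they were seen and rest on 1 or 2 libraries. In the Ifng window 7 of the 8 regions found in WT replicate 1 alone lay in a row of 28.3 kb, on chromosome 10 from 117895847 to 117924158. Their folds ran from 8.69 to 21.8 and their rank percentiles from 5.87 to 75.9. Within the same stretch A384T replicates 1 and 2 had 1 region each, Ifng region 7, and WT replicates 2 and 3 had none.

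A dense stretch lay beside the Il2 and Il21 window. The 250 kb to its left held 8, 3 and 1 peaks in A384T replicates 1, 2 and 3, against 28, 1 and 5 in WT replicates 1, 2 and 3. The 250 kb to its right held 7, 2 and 0 in A384T and 8, 0 and 1 in WT.

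The Il17a region stood at the edge of a long stretch without peaks. To its left no library of either genotype had a peak for 4.05 Mb, and of 24744 gaps between neighbouring regions of the genome 55 were at least this long, with a median gap of 12.4 kb. To the left of the Il10 window the next region lay 266 kb away, while to its right one lay 12.4 kb away.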
